A study of Mus musculus with 8 samples.

Results

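The genes of the spliceosome and of the heterogeneous nuclear ribonucleoproteins (hnRNPs) were examined in single endocardium cells of the mouse embryonic heart. They were chosen by gene symbol, as names that start with Snrp, Srsf, Sf3a, Sf3b, Hnrnp or U2af, or with Lsm or Prpf followed by a digit. The rule found 81 of the 35526 gene names on the array, carried by 133 of 55681 probes, and the probe with the highest mean intensity stood for a gene with several. The series holds 8 arrays with 1 cell on each, 4 cells from WT and 4 from *Sox17* KO embryos at E8.5 with 9 somites, and each cell was measured after amplification of its cDNA. WT cells were *Mesp1*+/+ and KO cells *Mesp1*Cre/+, and both carried 2 floxed *Sox17* alleles, so that only KO cells could lose the gene. *Mesp1*-driven Cre acts in the early mesoderm, not in the endocardium alone, and lies in the *Mesp1* locus, so that KO cells also differed from WT cells in that gene. The comparison asks how the loss of *Sox17*, the gene of a SoxF transcription factor, bears on the endocardium before heart anomalies are visible.

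Spliceosomes remove introns from pre-mRNA and are rebuilt on each intron from small nuclear ribonucleoproteins (snRNPs). Each of these joins an RNA to a ring of Sm or Lsm proteins and to proteins of its own. The U1 snRNP marks the start of the intron, U2AF and the U2 snRNP with its SF3A and SF3B complexes mark the branch point, and the tri-snRNP of U4, U6 and U5 then brings in the catalytic parts. SR proteins mostly promote the use of exons, and hnRNPs coat the pre-mRNA and often act against them. Most of these genes are active in all cell types, the endothelial lining of the heart included.

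Values are log2 of the scaled intensity, with all values under 50 set to 50, which is a floor of 5.64. No order can be read from values at the floor, and levels were not compared between genes because probes differ in brightness. No label names the embryo of a cell, so that each genotype counted as 1 sample. A difference is the mean of the KO cells minus the mean of the WT cells, given with the pooled SD between cells of a genotype (n = 4 cells each), and no test was made. A gene was called higher or lower when the means were at least 5-fold apart, a difference of 2.32. Precision is limited by the small number of arrays.

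WT cell 1 stood apart before any comparison. The scanner software called 11370 probes well above background in this cell and 12781 to 18175 in the others, and only this array was marked for evaluation by that software. Of the 81 genes, 40 were at the floor in WT cell 1, against 20 to 28 in the other WT cells and 24 to 32 in KO cells. The median over the 81 genes was 5.85 in WT cell 1, from 10.2 to 10.8 in the other WT cells and from 8.34 to 10.6 in KO cells. The raised share at the floor was not particular to the splicing genes. Over the 4972 gene names with a mean of at least 8, 28.3% were at the floor in WT cell 1 and 6.60% to 16.8% in the other cells, and over the 53 splicing genes of that kind it was 30.2% against 0.0% to 17%. Values that rest on WT cell 1 are given with and without it. WT cells lay in 1 column of the slide and KO cells in the other, so that genotype cannot be told apart from place on the slide. Between 6 and 10 of 10 endothelial and endocardial marker genes were well above background in each cell, with *Pecam1*, *Cdh5*, *Kdr* and *Sox18* detected in all 8. Cardiomyocyte markers were also detected, 3 to 8 of 9 in each cell, with *Actc1* and *Myh7* in all 8 and a summed intensity of 370.0 to 46300 in WT and 1010.0 to 48700 in KO cells, and their part in the results was not tested. Of the smooth muscle markers *Acta2* and *Tagln* were detected in every cell, and of 5 blood and 5 endoderm markers at most 1 in any cell. Both probes of *Sox17* were at the floor and not well above background in all 8 cells, and so did not check the labels.

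Most splicing genes were detected in at least 1 cell, but not in every cell. Of the 81, 76 were well above background in at least 1 cell and 39 in all 8, or 48.1% against 17.6% of all gene names. Among gene names with a mean of at least 8 it was 67.3%, and 39 of the 53 splicing genes of that level (73.6%). In a single cell, 49 to 64 were detected. Detection also depends on the probe, and is given by role as a count. In all, 6 of 8 Sm core genes and 9 of 12 genes of the SF3A, SF3B and U2AF group were detected in all 8 cells, and so were 11 of 20 hnRNP genes, 4 of 8 genes of the U6 Lsm ring and 2 of 4 genes of U1 and U2 snRNP proteins. It was 4 of 11 for SR genes, 2 of 13 for Prpf genes and 1 of 5 for the other Lsm genes. *Lsm11* of the U7 snRNP, which trims histone pre-mRNA, *Prpf19*, a ubiquitin ligase and the core of the Prp19 complex, *Prpf40b*, a homolog of a yeast U1 snRNP protein, and *Srsf12* were among the genes well above background in no cell.

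**Figure D1:**
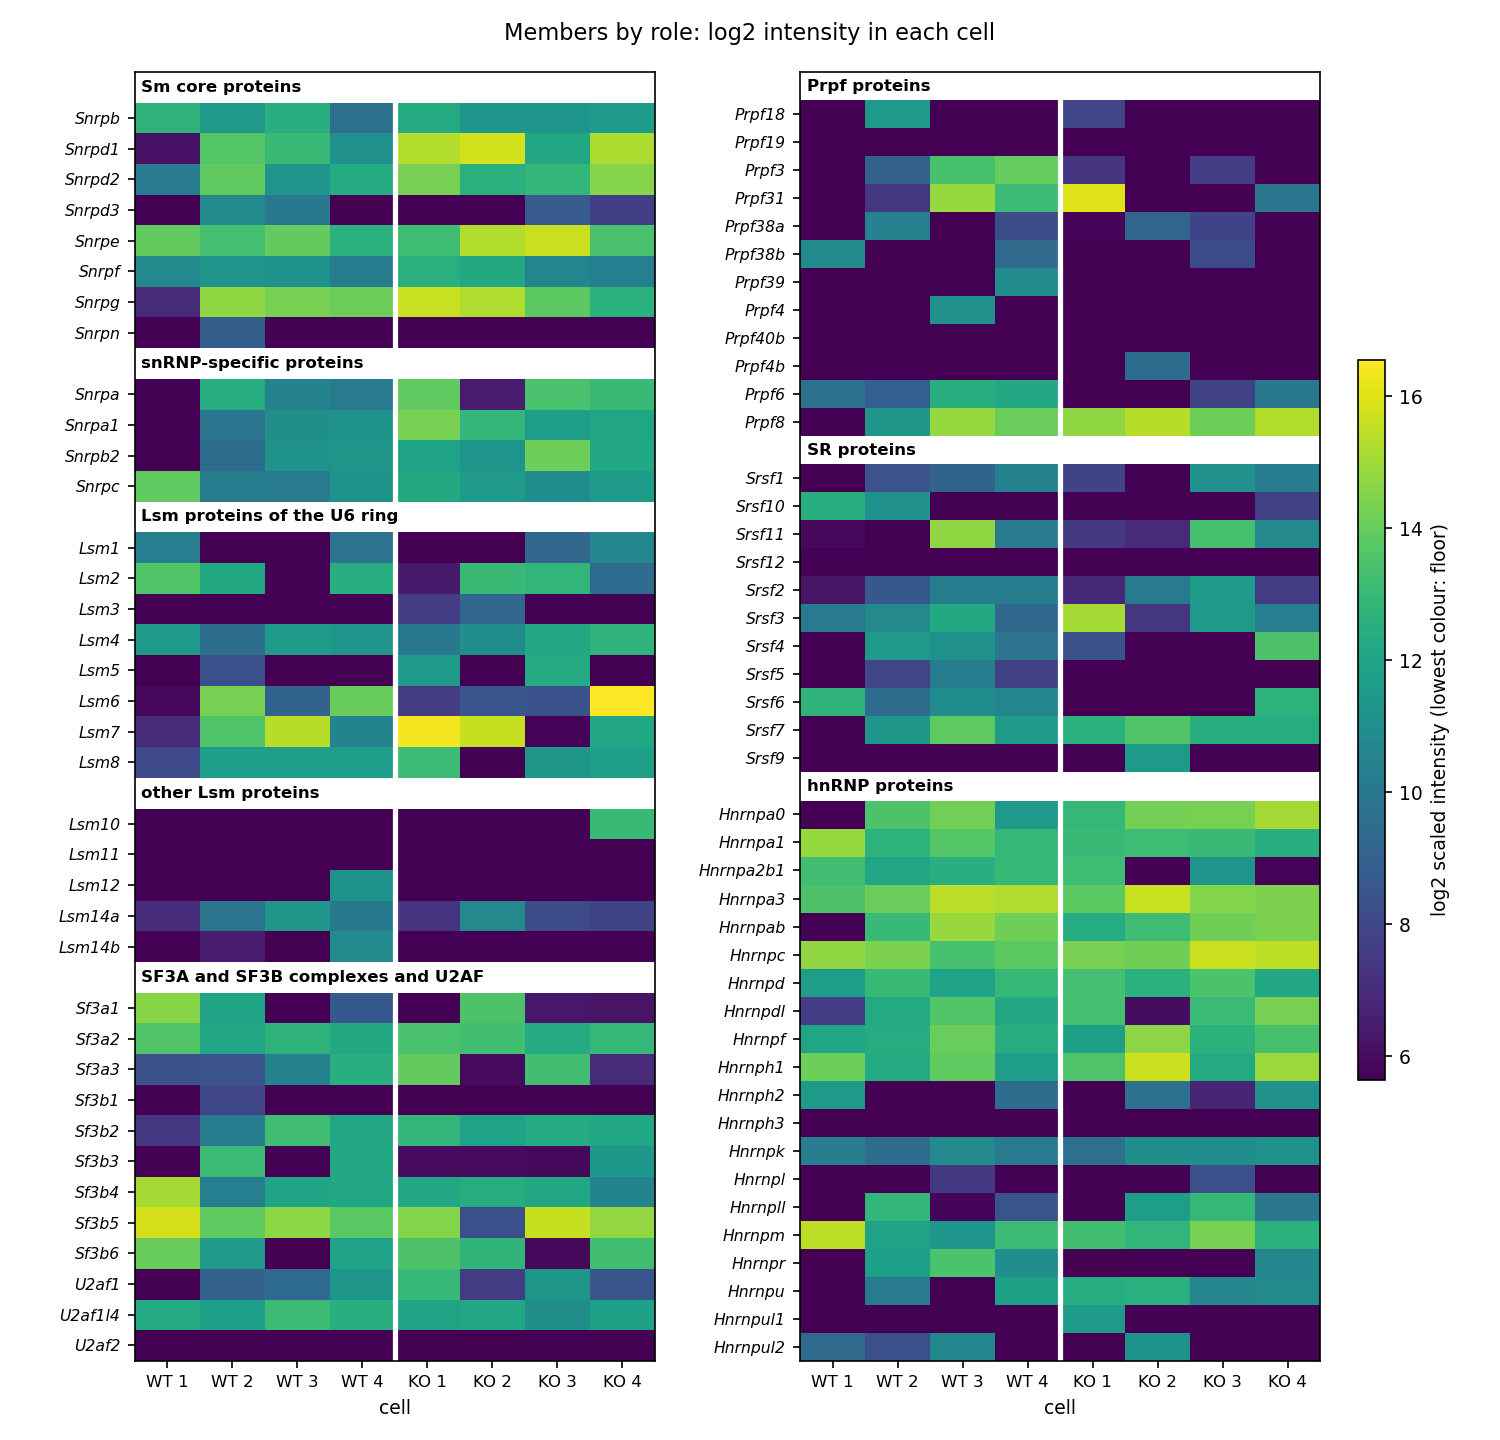
Log2 scaled intensity of 80 of the 81 splicing genes (lines, grouped by role) in the 4 WT and 4 KO cells (columns), from the floor of 5.64 in dark purple up to yellow. Within a line, cells of the same genotype can lie far apart, as for *Srsf6*, at the floor in KO cells 1 to 3 and at 12.68 in KO cell 4, and WT cell 1 was at the floor for 40 of all 81 genes.

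Between the genotypes, 7 of the 81 genes were at least 5-fold higher in KO cells and 6 at least 5-fold lower. The higher genes were *Snrpd1*, *Prpf8*, *Snrpa1*, *Hnrnpu*, *Snrpb2*, *Hnrnpa0* and *Lsm5*, and the lower genes were *Prpf3*, *Hnrnpa2b1*, *Hnrnpr*, *Prpf6*, *Srsf6* and *Srsf10*. These are 8.64% and 7.41% of the genes, where 1.84% and 1.86% of all gene names were called. Since 42.9% of all gene names were well above background in no cell, brighter names were set beside the splicing genes as well. Among names with a mean of at least 8, 8.35% were higher and 6.6% lower, beside 6 (11.3%) and 5 (9.43%) of the 53 splicing genes of that level. The shares of the splicing genes thus lay near those of other bright genes. The calls by role given below rest on 4 to 20 genes each and are listed as values, not as traits of a role. The median difference over the 81 genes was 0.08, beside 0.00 over all gene names, with 43 genes above 0, 31 below and 7 without a difference because they were at the floor in all 8 cells. No gene had all KO cells below all WT cells, as 0.144% of all names and 0.724% of bright names did. For 58 of the 81 the SD between cells was larger than the difference. At a mean of at least 8 this held for 39 of the 53 splicing genes and 3698 of all 4972 names, a similar share. Of the 74 genes with a difference, 27 changed its direction when 1 of the 8 cells was left out, 12 of them without WT cell 1, and none of the 13 called genes did. Changes of direction were not counted over all gene names. Without WT cell 1 the calls were 1 higher and 9 lower (all names, 1.55% and 2.96%) and the median was 0.00. Of the 53 bright splicing genes, 1 was then higher and 8 lower, beside 6.17% and 9.94% of bright names. Leaving out WT cell 2 gave 11 higher and 6 lower, and leaving out WT cell 3 gave 11 higher and 10 lower. Shares of all gene names without WT cell 2 or WT cell 3 are not given, so these counts do not set the splicing genes apart.

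**Figure D2:**
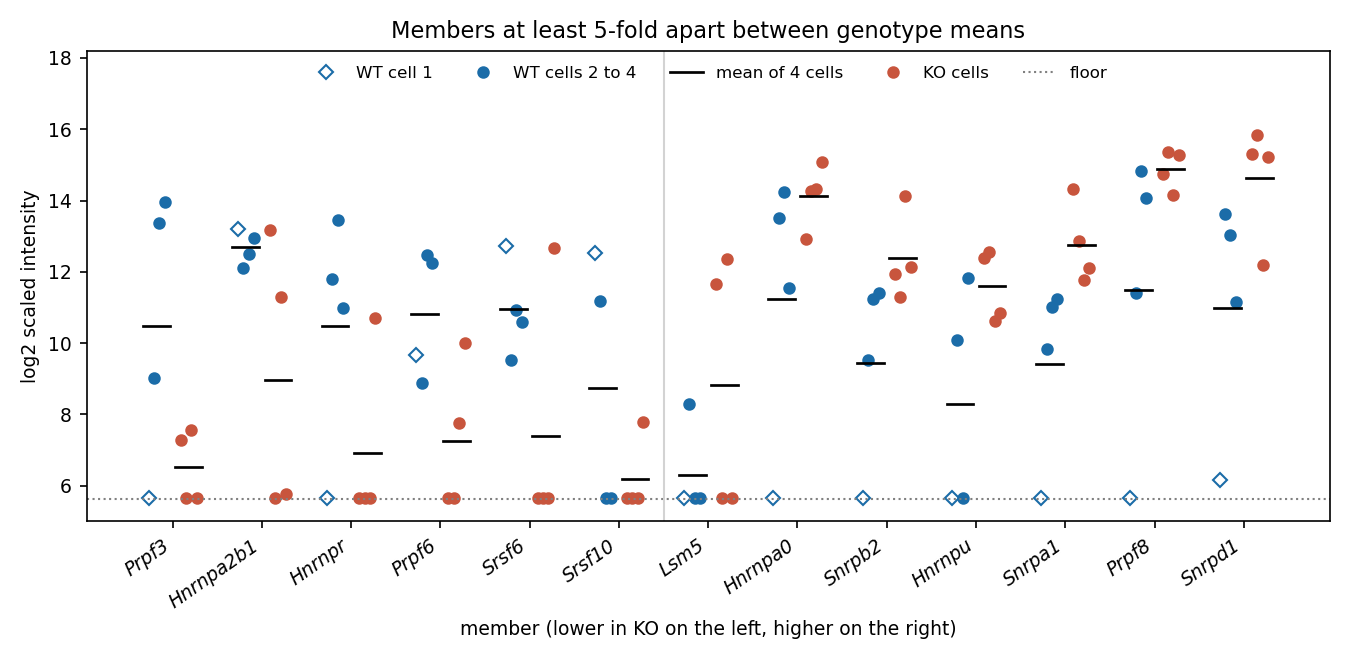
Log2 scaled intensity of the 13 splicing genes at least 5-fold apart between genotype means, 1 point per cell (WT blue, KO red, WT cell 1 as open diamonds), with bars for the mean of 4 cells and a dotted line for the floor of 5.64. WT cell 1 is at the floor for 6 of the 7 genes on the right and at 6.17 for the other, *Snrpd1*, and *Snrpa1* alone has all KO points above all WT points.

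The proteins of U1 and U2 snRNPs gave the one gene whose genotypes did not overlap. The products of *Snrpa1* and *Snrpb2* bind each other and the U2 snRNA. For *Snrpa1* the WT cells 1 to 4 were at 5.64, 9.82, 11.02 and 11.23, and the KO cells 1 to 4 at 14.31, 12.85, 11.77 and 12.11. Every KO cell thus lay above every WT cell, as for 229 (0.645%) of all gene names and 4.02% of the bright ones, but the lowest KO cell was only 0.54 above the highest WT cell. The difference was 3.33 with an SD of 2.0, a 10.1-fold ratio, and 2.07 without WT cell 1, which is under 5-fold, while the KO cells still lay above all of the 3 remaining WT cells. Without WT cell 4 it was 3.93. Its 2 probes overlap by 53 bases and are no independent check of each other. Both hold these 30 bases, shown because the only gene without overlap rests on them; the capitals mark AATAAA, the usual signal for cleavage and polyadenylation (mm9, plus strand, probe at chr7:73219407-73219466, from base 1183 of the transcript):
Snrpa1: tacaaatggtaaAATAAAggcgacttactg

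*Snrpb2* (mm9, chr2:142897258-142897317) was at 5.64, 9.51, 11.23 and 11.40 in WT cells 1 to 4 and at 11.95, 11.29, 14.13 and 12.15 in KO cells 1 to 4. Here KO cell 2 lay below WT cell 4, and the difference of 2.93 (SD 2.08) became 1.66 without WT cell 1, 3.53 without WT cell 3 and 3.58 without WT cell 4. The U1 proteins were less far apart. *Snrpa*, whose product binds the U1 snRNA, was 2.01 higher in KO cells (SD 3.19), or 0.66 higher without WT cell 1, the only cell at the floor. *Snrpc*, for the U1 protein that acts at the start of the intron, was 0.22 higher (SD 1.29), or 1.05 higher without WT cell 1, and its brightest cell was WT cell 1, at 13.87.

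Among the 8 Sm core genes, whose products form the ring around the U1, U2, U4 and U5 snRNAs, differences ran from -1.11 to 3.64 and 1 gene was called. *Snrpd1*, for SmD1, was at 6.17, 13.63, 13.03 and 11.16 in WT cells 1 to 4 and at 15.30, 15.82, 12.18 and 15.22 in KO cells 1 to 4. KO cell 3 lay among the WT cells. The difference of 3.64 (SD 2.66, 12.4-fold) became 2.03 without WT cell 1, and 4.51, 4.31 and 4.45 without WT cell 2, WT cell 3 and KO cell 3. Its other probe, 222 bases further along the transcript, differed by 0.60, or 0.16 without WT cell 1. *Snrpg*, for SmG, was at 6.98 in WT cell 1, from 14.10 to 14.76 in the other WT cells and from 12.60 to 15.63 in KO cells, so that its difference was 1.78 (SD 2.81) with WT cell 1 and -0.08 without it, and was just inside or outside 5-fold, at 2.52, 2.38, 2.30 and 2.35, without WT cell 2, WT cell 3, WT cell 4 and KO cell 4. *Snrpe* and *Snrpf* were above 10 in all 8 cells, with differences of 0.95 (SD 1.01) and 0.57 (SD 0.87). *Snrpn*, the imprinted gene for SmN, was at the floor in 6 cells and reached 8.88 in WT cell 2.

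The Lsm ring of the U6 snRNA held genes that were on in some cells and at the floor in others of the same genotype. *Lsm5* was called with a difference of 2.54 (SD 2.77), but 2 KO cells carried it, at 11.67 and 12.37, while the others were at 5.64 and 5.67 and the WT cells at 5.64, 8.29, 5.64 and 5.64. The call was lost without KO cell 1 (1.59), KO cell 3 (1.36) or any 1 of WT cells 1, 3 and 4 (2.31), and the difference was 3.20, 3.60 and 3.59 without WT cell 2, KO cell 2 and KO cell 4. Its 2 probes are placed on 2 chromosomes and gave 2.54 and 2.29. *Lsm6* ran from 5.85 in WT cell 1 to 16.55 in KO cell 4, and *Lsm7* from 5.73 in KO cell 3 to 16.35 in KO cell 1, although both were well above background in all 8 cells. Their SDs of 4.16 and 4.30 exceeded the differences of -0.59 and 0.84, which were -2.25 and -0.70 without WT cell 1. The difference of *Lsm6* was -2.69 without KO cell 4 and that of *Lsm7* 3.09 without KO cell 3, both past 5-fold. *Lsm4* lay between 9.58 and 12.76 in all 8 cells. *Lsm1*, which replaces *Lsm8* in the cytoplasmic ring of mRNA decay, was at the floor in 2 cells of each genotype.

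Of the 5 other Lsm genes, 1 was detected in all 8 cells. *Lsm10*, the partner of *Lsm11* in the U7 ring, was well above background in KO cell 4 alone, at 13.04. It was at the floor in all other cells. Its mean was 3.6-fold higher in KO cells, but this rested on that cell, and the difference was 0.0 without it. With floor values in both genotypes the ratio is no bound. *Lsm14a*, for a protein of P-bodies, was detected in all 8 cells with a difference of -1.07 (SD 1.70), or -1.92 without WT cell 1. In all, 8 splicing genes were well above background in only 1 genotype, and none had a larger ratio of floored means than *Lsm10*. Each was detected in only 1 or 2 cells. The share over all gene names is not given, so this count does not set the splicing genes apart.

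No gene of the SF3A, SF3B and U2AF group was called in either direction. Among bright gene names 8.35% were higher and 6.6% lower, and 12 genes are too few to make this a trait of the group. *Sf3a2*, for a subunit of SF3A, had the smallest range of all 39 genes detected in every cell, from 12.06 to 13.60, and a difference of 0.32 (SD 0.59), or 0.63 without WT cell 1. Its partner *Sf3a1* was just outside the call at -2.30 (SD 3.82), with WT cells at 14.61, 12, 5.64 and 8.66 and KO cells at 5.64, 13.52, 6.32 and 6.22, and was -0.84 without WT cell 1 but past 5-fold, at -3.83, -2.82 and -4.17, without WT cell 3, WT cell 4 and KO cell 2. *Sf3b6*, for the subunit that lies at the branch point, was at 5.64 in WT cell 3 and 5.88 in KO cell 3 and from 11.56 to 14.03 in the other 6 cells. *Sf3b3* was above 11 in WT cells 2 and 4 and KO cell 4 and at or under 5.96 in the rest, with a difference of -1.84 (SD 3.46), and was past 5-fold without WT cell 1 (-3.01), WT cell 3 (-3.0) or KO cell 4 (-3.22). *Sf3b5* was at 8.31 in KO cell 2 and from 13.78 to 15.85 in the others. *U2af1l4*, a relative of the small U2AF subunit, lay within 11.03 to 13.11 in all cells. *U2af2*, for the large subunit, was at the floor in all 8, although well above background in 2 WT cells.

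The Prpf proteins gave calls in both directions within the tri-snRNP. *Prpf3*, of the U4/U6 snRNP, and *Prpf6*, which bridges it to U5, were lower in KO cells, and *Prpf8*, the scaffold of the catalytic centre, was higher. For *Prpf3* the WT cells 1 to 4 were at 5.64, 9.01, 13.37 and 13.96 and the KO cells at 7.30, 5.64, 7.56 and 5.64, a difference of -3.96 (SD 2.86, 15.6-fold). Only WT cell 1 overlapped with the KO cells, and without it the difference was -5.58. Without WT cells 3 and 4 it was -3.0 and -2.81. *Prpf6* was at 9.67, 8.89, 12.48 and 12.24 in WT cells and at 5.64, 5.64, 7.76 and 9.997 in KO cells, a difference of -3.56 (SD 1.95). KO cell 4 lay above WT cells 1 and 2, and the difference was -4.47 without it, -4.20 without WT cell 2 and -3.94 without WT cell 1. *Prpf8* was at 5.64, 11.42, 14.81 and 14.07 in WT cells and at 14.73, 15.37, 14.15 and 15.29 in KO cells. WT cell 3 lay among the KO cells and WT cell 4 just below them. Its difference of 3.40 (SD 2.97) rested on WT cell 1 and became 1.45 without it, and 4.51 and 4.26 without WT cells 3 and 4. *Prpf31*, of the U4/U6 snRNP as well, had the widest spread, an SD of 4.68, with 14.88 and 13.12 in WT cells 3 and 4, 16.02 in KO cell 1 and the floor in WT cell 1 and KO cells 2 and 3. *Prpf6* is on the study's list of decreased endocardium genes, as are *Srsf6* and *Hnrnpa2b1*, and since that list was chosen on these same cells it is not independent evidence. The first 30 bases of the probes of both lower genes show what was measured (mm9, *Prpf3* at chr3:95634599-95634658 on the minus strand, *Prpf6* at chr2:181389577-181389636 on the plus strand):
Prpf3: gtgatctcagaactgtgccaggccgatacc
Prpf6: ggagtggttccatcgcactgtgaagattga

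Of the 11 SR genes, 2 were lower in KO cells and none higher. Among bright gene names 6.6% were lower and 8.35% higher, and 11 genes are too few to set against these shares. *Srsf6*, for the SR protein SRp55, was at 12.72, 9.53, 10.94 and 10.59 in WT cells 1 to 4, and at the floor in KO cells 1 to 3 and 12.68 in KO cell 4. The difference of -3.54 (SD 2.66, 11.7-fold) was thus one of on and off cells, with KO cell 4 above 3 of the 4 WT cells. It was -5.30 without KO cell 4, -2.96 without any 1 of the other KO cells and -2.95 without WT cell 1. The second probe, 1944 bases further along the transcript, was also at the floor in KO cells 1 to 3, but it was at the floor in WT cell 1 as well, where the upstream probe was at its brightest. It gave -1.68, or -2.40 without WT cell 1. Their first 30 bases are shown because both parts of the transcript were at the floor in KO cells 1 to 3 and differed in WT cell 1 (mm9, plus strand, chr2:162760546-162760605 and chr2:162762490-162762549):
Srsf6, upstream probe: taggcagttactcttccgagtttatactcg
Srsf6, downstream probe: gcagaagtgactgacttaaagtgttttagt

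*Srsf10*, whose product can repress splicing, was at 12.52 and 11.17 in WT cells 1 and 2, at the floor in WT cells 3 and 4 and KO cells 1 to 3, and at 7.78 in KO cell 4. Its difference of -2.57 (SD 2.67) was under 5-fold without WT cell 1 (-1.31) or WT cell 2 (-1.76) and was -3.60 without WT cell 3 or 4. *Srsf5* was just outside the call at -2.25 (SD 1.32), with all KO cells at the floor and WT cells at 5.64, 7.93, 10.22 and 7.77, and became -3.0 without WT cell 1. *Srsf7*, in contrast, was 2.14 higher (SD 2.51), and 0.47 without WT cell 1, the only cell at the floor, but 2.40, 3.21 and 2.48 without WT cells 2, 3 and 4. *Srsf11* ran from 5.64 in WT cell 2 to 14.76 in WT cell 3, with an SD of 3.71 and a difference of 0.57, which was -0.51 without WT cell 1, -0.58 without WT cell 2 and 2.46 without WT cell 3. *Srsf3* was detected in all 8 cells, with a difference of 0.43 (SD 2.43), which was -0.91 without KO cell 1 and 0.29 without WT cell 1.

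The 20 hnRNP genes held 4 calls and 3 of the 5 genes with the smallest range. *Hnrnpk* lay between 9.50 and 11.25, *Hnrnpd*, for AUF1, between 11.70 and 13.45, and *Hnrnpa3* between 13.52 and 15.62, with differences of 0.61 (SD 0.63), 0.46 (SD 0.64) and 0.02 (SD 0.84), or 0.64, 0.22 and -0.32 without WT cell 1. *Hnrnpc*, for a core protein of the hnRNP particle, lay between 13.37 and 15.70. On these probes the 4 genes were well above the floor in WT cell 1 too. The second probe of *Hnrnpc* was at 6.24 in WT cell 1 and from 11.6 to 12.5 in the other cells. Its difference was 1.96, or 0.60 without WT cell 1. Some other probes of *Hnrnpa3* were at the floor in WT cell 1. The 7 probes of *Hnrnpa3* are placed on 7 chromosomes, so that near-identical copies may share its signal, and the same is uncertain for 10 further splicing genes with probes on 2 chromosomes, *Hnrnpa1*, *Lsm5* and *Snrpe* among them.

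*Hnrnpu*, whose product also organises chromatin, was higher in KO cells with and without WT cell 1. Its WT cells 1 to 4 were at 5.64, 10.09, 5.64 and 11.84 and its KO cells at 12.39, 12.55, 10.61 and 10.84, so that WT cell 4 lay among the KO cells. The difference was 3.30 (SD 2.34, 9.82-fold), 2.41 without WT cell 1 or WT cell 3, 3.89 without WT cell 2 and 4.47 without WT cell 4. *Hnrnpa0* (chr13:58227371-58227430) was at 5.64, 13.50, 14.25 and 11.56 in WT cells and at 12.91, 14.27, 14.31 and 15.07 in KO cells. WT cells 2 and 3 lay among the KO cells. Its difference of 2.90 (SD 2.83) became 1.04 without WT cell 1, 3.66 without WT cell 2 and 3.90 without WT cell 3. The array holds a single probe for *Hnrnpu*, whose first 30 bases are given as it was the only gene called higher in both cases (mm9, chr1:180258996-180259055, minus strand):
Hnrnpu: aaggggtcctcatgaattgcattaagattc

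*Hnrnpa2b1*, for the hnRNP A2 and B1 proteins, was even in WT cells, at 13.21, 12.11, 12.50 and 12.96, and split in KO cells, at 13.16, 5.64, 11.29 and 5.76. The difference of -3.73 (SD 2.74, 13.3-fold) rested on KO cells 2 and 4, and was -2.62 and -2.66 without each of them and -5.13 and -4.50 without KO cells 1 and 3. It was -3.56 without WT cell 1. *Hnrnpr* was at 5.64, 11.80, 13.44 and 10.98 in WT cells and at the floor in KO cells 1 to 3, with 10.69 in KO cell 4. Its difference of -3.56 (SD 2.98) was -5.17 without WT cell 1, where the genotypes no longer overlapped, -2.57 without WT cell 3 and -4.82 without KO cell 4. *Hnrnpdl* was at 7.54 in WT cell 1 and 6.01 in KO cell 2 and between 12.24 and 14.30 in the other cells, with a difference of 0.25 (SD 3.29), which was -1.04 without WT cell 1 and 2.14 without KO cell 2.

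WT cell 1 carried most of the higher calls. Of the 7 genes called higher, 6 were under 5-fold without WT cell 1, and of the 6 called lower, 5 stayed past it. *Prpf31* (-2.48), *Sf3b3*, *Srsf4* (-2.52) and *Srsf5* then joined the lower genes. Of the higher genes, *Lsm5* moved only from 2.54 to 2.31, and to the same value without WT cell 3 or WT cell 4. The loss of its call was thus not particular to WT cell 1. *Snrpa1* was the only gene with all KO cells above WT cells 2 to 4 (all names, 1.51%), and *Hnrnpr*, *Prpf3* and *Srsf5* had all KO cells below them (0.69%). In 14 of the 81 genes exactly 1 cell was at the floor, and in 9 of these that cell was WT cell 1, beside 309 (51.1%) of the 605 bright gene names of this kind.

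**Figure D3:**
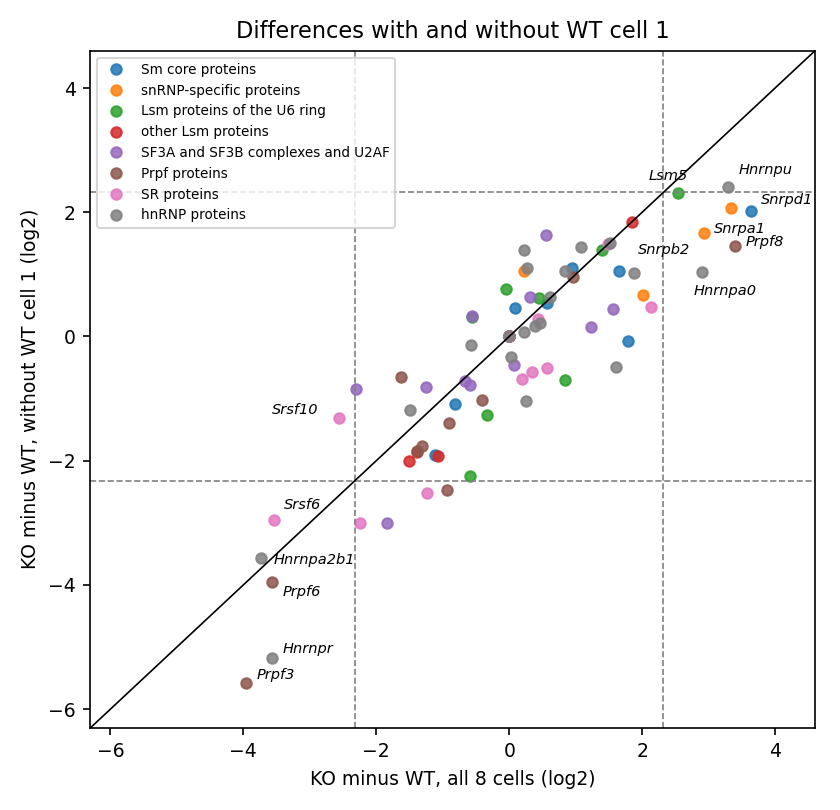
Difference between genotypes (KO minus WT, log2) of each of the 81 splicing genes with all 8 cells (x axis) and without WT cell 1 (y axis), coloured by role, with dashed lines at 5-fold and a solid line where both are equal. The called genes are named: *Hnrnpu* alone stays above the upper dashed line, and 5 of 6 lower genes stay below the lower one.

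Single cells of the same genotype were also often at least 5-fold apart. A pair sets 1 cell against another, while the calls compare means of 4 cells, which vary less. Over the 53 splicing genes with a mean of at least 8, a median of 34.0% were at least 5-fold apart when 2 cells of 1 genotype were paired (12 pairs, 22.6% to 64.2%), and 37.7% when a WT cell was paired with a KO cell (16 pairs, 24.5% to 54.7%). Without the pairs that hold WT cell 1 the medians were 32.1% and 34.9%, and over all 4972 bright gene names 33.4% and 32.8%. Pairs of WT cell 1 with other WT cells gave larger shares in the splicing genes. Paired with WT cells 2, 3 and 4 it gave 60.4%, 58.5% and 64.2% of the 53 splicing genes. Over bright gene names these pairs gave 41.4%, 38.8% and 43.3%. The shares at the floor in WT cell 1 were closer, at 30.2% and 28.3%. Both sets share only the cut of 8 on the mean, and whether the gap is particular to splicing genes was not tested. Splicing genes that were at the floor in 1 cell and at or above 10 in another of the same genotype numbered 33 in WT and 16 in KO cells, or 14 in WT cells without WT cell 1. Of these, 9 did so in both genotypes. Among bright gene names the share was 32.8% in WT, 29.4% in KO and 16.8% in WT without WT cell 1, where the 53 bright splicing genes gave 39.6%, 18.9% and 9.43%.

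**Figure D4:**
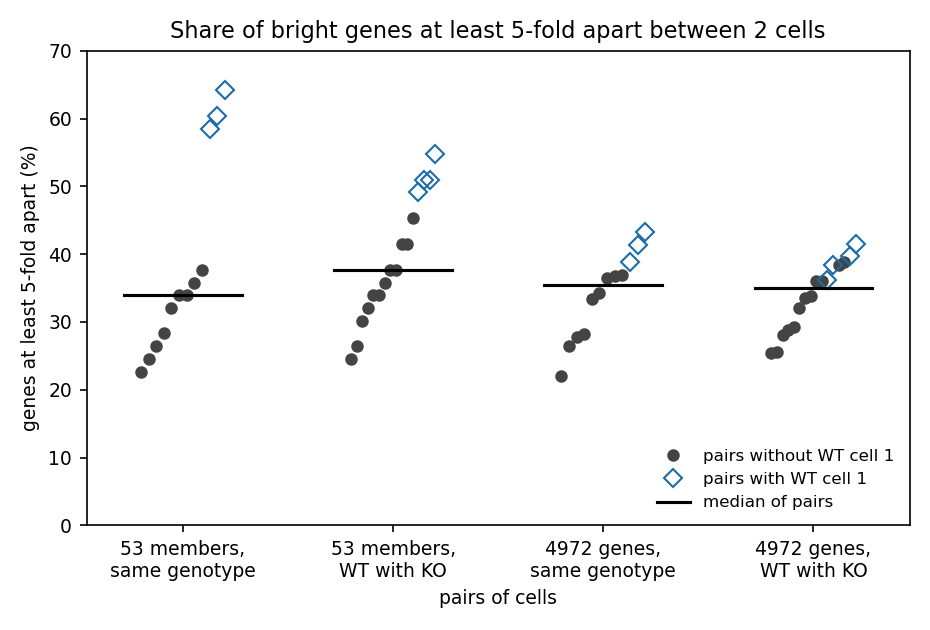
Share of genes at least 5-fold apart in each pair of cells (y axis, percent), for the 53 splicing genes and the 4972 gene names with a mean of at least 8, in 12 pairs of the same genotype and 16 of WT with KO. Bars are medians, and pairs with WT cell 1 (open diamonds) lie above all other pairs in both columns of the splicing genes, up to 64.2%.

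Probes of the same gene did not always give the same difference. Of the 38 splicing genes with several probes, all probes had the same direction in 19, and in 7 they were at least 5-fold apart in the difference. *Hnrnpa0*, *Hnrnpr* and *Hnrnpa2b1* each have a probe at the floor in all 8 cells beside the probe described above. With the mean over all probes in place of 1 probe, 5 of the 13 called genes were under 5-fold, *Hnrnpa0* at 1.45, *Snrpd1* at 2.12, *Hnrnpa2b1* at -1.86, *Hnrnpr* at -1.78 and *Srsf10* at -1.09. In *Hnrnpdl*, the second probe gave -2.87 where the first gave 0.25, and in *Srsf7* the second gave -0.37 where the first gave 2.14 (-0.91 and 0.47 without WT cell 1). For *Hnrnpa2b1* the silent probe lies 364 bases further along the transcript and holds AATAAA (capitals), unlike the bright one, and both sequences are shown as this called gene rests on the choice between them (mm9, minus strand, chr6:51411295-51411354 and chr6:51410931-51410990; bases 1 to 30 and 28 to 57 of the probes):
Hnrnpa2b1, bright probe: ctgaaagtagttcttgttggtgccttcatt
Hnrnpa2b1, silent probe: tatttactgtctAATAAAatataccttact
AATAAA, searched on the strand of the probe only, is in 13 of the 133 probes (9.77%) and in 10.1% of all probes, and 11 of the 13 were well above background in at least 1 cell, as were 106 of those without it. Transcripts with probes at least 200 bases apart were also compared. The upstream probe was detected in more cells for 17 of 25 splicing transcripts with a detected probe and the downstream one for 6, where it was 40.1% upstream and 47.9% downstream of 3123 transcripts in all. Other reasons for unequal probes were not tested.

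**Figure D5:**
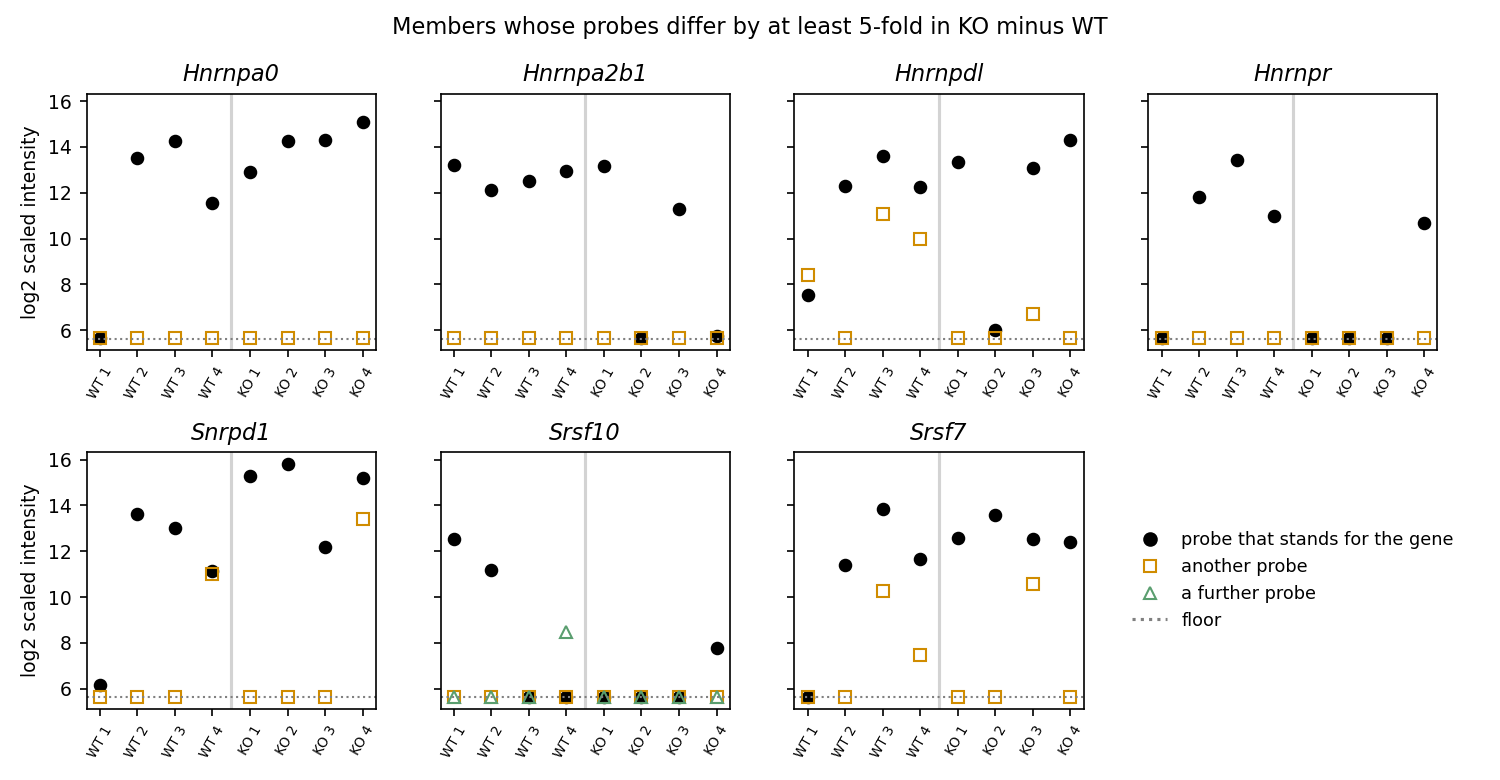
Log2 scaled intensity of each probe of the 7 splicing genes whose probes were at least 5-fold apart in the difference, in the 4 WT and 4 KO cells (x axis), with filled circles for the probe that stands for the gene and open symbols for the others. The other probe of *Hnrnpa0*, *Hnrnpa2b1* and *Hnrnpr* stays on the dotted line of the floor, 5.64, in all 8 cells.

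The other genes of the pathway also held calls in both directions. Of 87 such genes in 4 lists, all on the array, 82 were well above background in at least 1 cell and 24 (27.6%) in all 8. Of the 87, 5 (5.75%) were at least 5-fold higher in KO cells and 5 (5.75%) lower, and the median difference was 0.00. The shares were 1.84% and 1.86% of all gene names, and 3.23% and 3.27% of names detected in at least 1 cell. Among names with a mean of at least 8 they were 8.35% and 6.6%. The calls were 1 higher and 2 lower of 25 further snRNP proteins and helicases, 2 and 1 of 18 proteins of the Prp19 complex and catalytic core, 0 and 1 of 13 of the exon junction and cap-binding complexes and 2 and 1 of 31 splicing regulators. In the Prp19 complex, *Plrg1* was at 5.64, 9.76, 12.59 and 10.86 in WT cells 1 to 4 and not well above background in any KO cell, while *Bcas2* was at 5.64, 6.63, 7.13 and 5.64 in WT and at 8.87, 6.29, 10.70 and 13.51 in KO cells. Without WT cell 1 the counts over the 87 genes were 3 higher and 10 lower, beside 1.55% and 2.96% of all gene names. Among bright names it was 6.17% and 9.94%, though not all of the 87 are that bright.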

How the data were processed

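The authors dissociated hearts (heart tube in the labels, ventricle in the paper) with trypsin (3 min in the paper, 5 min in the labels), amplified the cDNA of each cell after priming on poly(A), identified the cell type by PCR of marker genes and labelled the transcribed RNA with Cy3. The deposited intensity values were read by Agilent Feature Extraction (version 12.0.2.2, array design 028005, probes placed on mm9), which subtracted the background and removed trends within an array. No scaling between arrays had been applied. The remaining deposited columns used are flags for outliers, saturation and signal over background.

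Here, control and outlier spots were dropped, replicate spots were averaged, and the 55295 of 55681 probes usable on every array were kept, among them all 133 of the splicing genes. No spot was saturated. A probe counted as well above background when over 50% of its spots were. Arrays were brought to a common 50th percentile, taken over 7570 probes detected on every array, before the floor of 50 was set and logarithms were taken. This differs from the methods of the paper, which set the floor first and also centred each gene on its median. Gene names are those in the files, and 80 of the 81 matched by accession to the same symbol in a table of mouse RefSeq genes (GRCm38.p6, names only), all but *Sf3b5*. Depth is the number of probes well above background, 11370 to 18175.

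The genes and all lists were chosen with earlier results of these data known. Genes were named when at least 5-fold apart, without overlap of genotypes, on the study's lists, among the 5 smallest ranges or 5 largest SDs of genes detected in all cells, among the 5 probes with the highest intensity, detected in no cell, or with probes at least 5-fold apart, with at least 2 of each role. Others were added for their role. The values of 1 gene are not reported here, although it is in the counts. No test was made, since each genotype is 1 sample. The scaling, floor and difference steps were also run on simulated arrays with known shifts. Their noise was smaller than the median SD between cells of the splicing genes, and the other steps were not simulated. Alternatives were the 75th percentile, a floor set before scaling with all probes, quantile normalization, normexp with an offset of 50, floors of 10 or 200, averaging the probes of a gene, restriction to probes detected on every array, another detection flag, and leaving out each cell. Python 3.11.15, numpy 2.4.6, pandas 2.3.3, matplotlib 3.10.9, R 4.3.3 and limma 3.58.1 were used.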

Additional observations from a re-analysis of the deposited data

Results flagged for a closer look

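In 14 of 72 groups of 4 cells checked, 1 cell lay so far from the other 3 that its gap to the nearest, as a share of the range of the group, passed the 95% critical value of Dixon. Chance passes about 1 in 20 groups, but many of these genes were named for their large spread or difference and the groups share cells, so that the number of groups is a description only. In 4 of them the other 3 cells were at the floor, so that the ratio is 1.0 by construction: *Srsf6*, *Srsf10* and *Hnrnpr* in KO cells, each with KO cell 4 above, and *Lsm5* in WT cells with WT cell 2 above. WT cell 1 lay below the other WT cells in the median of the 81 splicing genes (ratio 0.876) and in *Snrpg* (0.916). KO cell 4 lay above the other KO cells in *Lsm6* (0.894), where these were at 7.55, 8.51 and 8.37. It also lay above them in *Sf3b3* (0.982), where the other KO cells were just above the floor and have no order. KO cell 2 lay below the other KO cells in *Hnrnpdl* (0.853) and *Sf3b5* (0.857) and above them in *Srsf7* (0.843). KO cell 3 was below in *Sf3b6* (0.901) and *Snrpd1* (0.833), and KO cell 1 in *Hnrnpk* (0.852), a gene that nevertheless ranged over only 1.75 on the log2 scale in all 8 cells.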

How the results depend on the processing

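The count of genes at least 5-fold higher in KO cells, 7, became 12 with a floor of 10 and 3 when kept to probes detected on every array, and the count lower, 6, became 3 with the mean of all probes and 2 when kept to probes detected on every array, where 39 genes remained. Of gene names detected in all 8 cells, 2.41% were higher and 1.86% lower, beside 7.69% and 5.13% of these 39 genes. Among names with a mean of at least 8 it was 8.35% and 6.6%. For the other settings, apart from leaving out WT cell 1, no share over all gene names is given. Their counts thus do not set the splicing genes apart. Leaving out 1 cell gave 1 to 11 higher genes, 6 to 10 lower genes, median differences of 0.00 to 0.19 and 39 to 43 genes detected in every remaining cell. In the other settings the counts were 5 to 7 higher and 4 to 9 lower, and the median difference over the genes lay between -0.002 and 0.25 in all settings that keep every gene. *Lsm5* was under 5-fold with the 75th percentile or a floor set before scaling (2.32 and 2.31), *Srsf10* (-2.19) under normexp, and *Lsm5* (2.03), *Hnrnpu* (2.29), *Srsf6* (-2.04) and *Srsf10* (-2.07) with a floor of 200. No called gene changed its direction in any setting. Of 531 values of named genes under alternatives, 526 moved by less than the SD between cells. That SD is wide, so the count is no measure of stability. *Snrpg*, which went from 1.78 to -0.08 without WT cell 1, is among the 526. The 5 values that moved by more were those of the genes detected in no cell, at 0.18 to 0.24 under normexp without a floor. No paired analysis was possible because the replicate numbers name single cells of no stated embryo and no test was made. Signal over background limits the genes near the floor, where no order can be read.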
